A study of Mus musculus with 6 samples.

Results

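The genes described here are 8 of the 24082 gene symbols on a mouse expression array, and they encode glutamate transporters and enzymes and a carrier of the glutamine cycle. They are Slc1a3, Slc1a2, Slc1a1, Slc1a6, Slc1a4, Glul, Slc38a3 and Glud1. Their probes were taken by gene symbol, and the genes were chosen with earlier results of these data known. All 11 probes that the array carries for them, of 55681 probes in all, were followed over 6 arrays. The study sorted cells of the neonatal cerebellum of CD1 wild-type mice into a pair of astroglial precursor fractions with magnetic beads and compared their RNA, A+/G+ on 3 arrays and A-/G+ on the other 3. A stands for ACSA-2, an epitope on the Na/K-ATPase subunit encoded by Atp1b2, and G for GLAST, the glutamate transporter encoded by Slc1a3. Both fractions were untreated, each array received RNA of 50000 cells, and the labels give postnatal days 1 to 3, whereas the study's methods give younger pups and another strain for its animals.

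The sorts were not mirror images. A+/G+ was collected with beads against ACSA-2 alone, so that GLAST was not used to select it. A-/G+ was first cleared of cells carrying ACSA-2, the neuronal surface proteins L1CAM and PSA-NCAM, the leukocyte antigen CD45 or the erythroid antigen Ter119, and was then collected with an antibody against GLAST. Cerebella were pooled before the sort, and the labels do not say which mice or days stand behind each array, so that the p-values measure the spread between these samples. In such bulk samples fewer cells of a type and less RNA per cell cannot be told apart.

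Glutamate released at synapses is taken up, together with sodium, by membrane transporters of the SLC1 family, mostly into astrocytes. There glutamine synthetase joins it to ammonia, and the resulting glutamine is exported for neurons to turn back into glutamate, or the glutamate is oxidized in mitochondria after glutamate dehydrogenase has removed its amino group. In the cerebellum GLAST is the main transporter of Bergmann glia, the radial astrocytes around Purkinje cells, while EAAT4 is known for its place on Purkinje cells themselves.

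Each value below is the brightness of a 60-base probe, and the first 30 bases of the probes on which the results turn are printed so that the measured stretch of each transcript can be found. Of the genes with several probes, Slc1a2 is shown because its probes differed in direction and in overlap between the fractions. Glud1 is shown because its probes did not differ in these.
Slc1a3, chr15:8584236-8584295, minus strand: gtttacccggtgtgatattttttatactaa
Slc1a6, chr10:78277447-78277506, plus strand: tgaacatacatgttctgtgtgggttctctg
Slc38a3, chr9:107553825-107553884, minus strand: ctgaagacatcccctagtcctgctgagaga
Slc1a2 probe 1, chr2:102617752-102617811, plus strand: aagcaactctaatcagtgtgtctatgccgc
Slc1a2 probe 2, chr2:102622252-102622311, plus strand: gtagaatgtttcagagtttcatgggtgccc
Slc1a2 probe 3, chr2:102626380-102626439, plus strand: aacccagtttccagcattcagacatcagta
Glud1 probe 1, chr14:35157940-35157999, plus strand: tgaacaggaatgtcccacagaagtaccaga
Glud1 probe 2, chr14:35157289-35157348, plus strand: tggcattttccaaaggtggcatggtcctca
Sequences run 5′ to 3′, positions refer to mm9 as annotated for the array, and probes of a gene are numbered from the brightest. The annotation assigns every one of these probes to an mRNA of its gene. Whether a probe lies in coding sequence or in an untranslated part was not determined here. The 3 Slc1a2 probes follow each other along the plus strand with starts 4500 and 4128 bases apart, the first annotated to NM_011393 and the other two to NM_001077514.

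The A+/G+ arrays were brighter before normalization, with a 75th percentile of intensity of 329 to 332 against 55.9, 112 and 250, and 26476 to 26654 probes well above background against 18338 to 24730. The A+/G+ arrays shared 1 slide and the A-/G+ arrays another, and an effect of the slide cannot be told apart from one of the fraction. All 11 probes of the 8 genes were nevertheless well above background on all 6 arrays, and no spot was saturated. Values are log2 signals after quantile normalization, a difference is the A+/G+ mean less the A-/G+ mean on that scale, and a gene passed the test when its adjusted p, from limma over all 55681 probes, was at most 0.05. The median difference was -0.03 over all gene symbols.

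Of the 8 genes, each read by its brightest probe, 3 were higher in A+/G+: Slc1a6, the transporter EAAT4, Slc38a3, the glutamine carrier SNAT3, and Glud1, glutamate dehydrogenase. Of all gene symbols 7.48% passed in that direction. None passed as higher in A-/G+ by limma, where the share of all symbols was 5.12%. Slc1a3 and Glul lay in that direction, both at an unadjusted p under 0.05 in limma. The share of all symbols at that unadjusted limit is not given here. A 4-fold gap between the medians was reached as well by 1 gene, Slc1a6, against 2.62% of all symbols in that direction and 0.44% in the other. Among the 11 probes 4 passed as higher in A+/G+ and none as higher in A-/G+, beside 4.65% and 4.64% of all probes. The count of 3 genes fell to 1, Slc38a3, without A+/G+ replicate 1 or without A+/G+ replicate 3, and the count of 4 probes fell to 1 in the same cases and to 2 without A+/G+ replicate 2 or A-/G+ replicate 1. Without A-/G+ replicate 3, Slc1a3 also passed, as higher in A-/G+. The shares of all symbols passing in these left-out fits are not given here. The 3 arrays of the fractions did not overlap for 5 genes, of which 3 were higher in A+/G+ and 2 in the other fraction, where 19.1% and 23.3% of all symbols did so. The median difference of the 8 genes was 0.28.

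**Figure D1:**
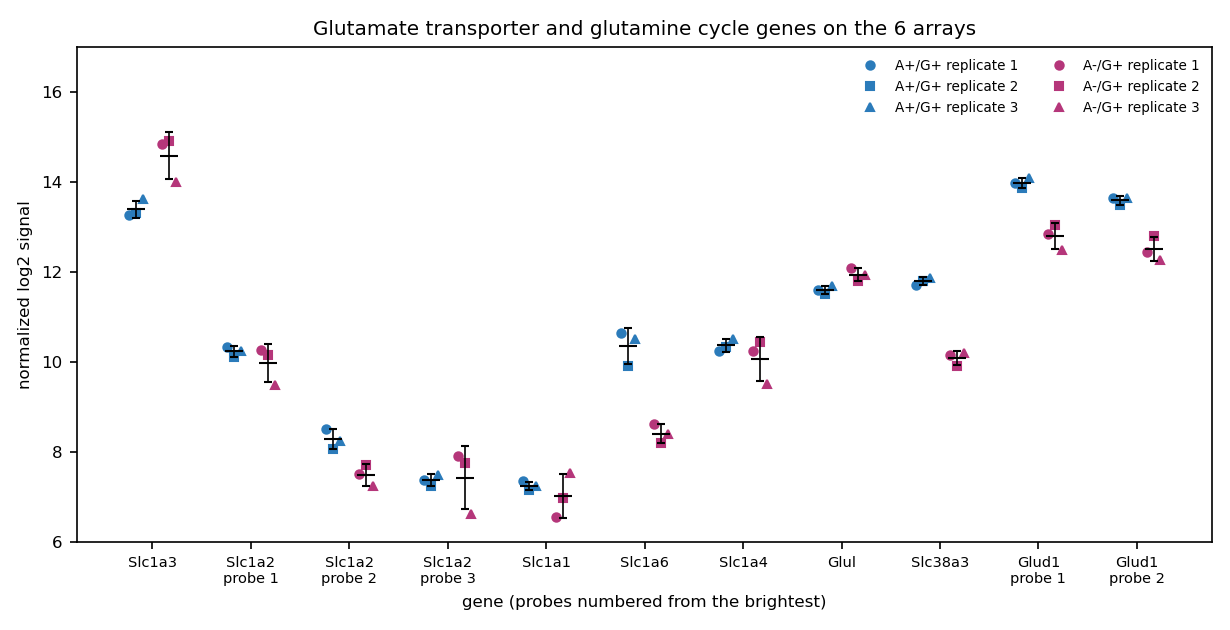
Normalized log2 signal of the 11 probes on each of the 6 arrays. Points are arrays (blue A+/G+, magenta A-/G+; shapes mark replicates), and bars are the mean and SD of 3 arrays; Slc1a6, Slc38a3 and both Glud1 probes lay higher on all A+/G+ arrays, Slc1a3 and Glul higher on all A-/G+ arrays. Heights of different probes are not comparable.

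Slc1a3, whose protein GLAST gives both fractions the G of their names, was brighter in A-/G+. It read 13.26, 13.31 and 13.61 on the A+/G+ arrays and 14.85, 14.92 and 14.00 on the A-/G+ arrays. Every A-/G+ array was brighter, and A-/G+ replicate 3 was the dimmest of them and closest to A+/G+. The difference was -1.19 (standard error 0.288), with the medians 2.90-fold apart. It missed the limit of the test (adjusted p = 0.0733, limma with Benjamini-Hochberg adjustment), and 3 arrays against 3 cannot give less than the exact permutation p = 0.1 that it reached (two-sided). Without A-/G+ replicate 3 the difference was -1.49 and the adjusted p from limma 0.0111. Over 17 alternative settings it ran from -1.49 to -1.03 and passed in 6. The antibody against this protein selected A-/G+ and not A+/G+, and that step cannot be told apart from the fraction.

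Slc1a2, which encodes GLT-1, the transporter that carries most glutamate uptake in the mature forebrain, has 3 probes, of which none passed the test and the second alone did not overlap between the fractions. The first and brightest read 10.34, 10.11 and 10.24 in A+/G+ and 10.26, 10.15 and 9.48 in A-/G+, a difference of 0.26 with a 95% interval from -0.33 to 0.86 (adjusted p = 0.555, limma). The fractions overlapped, and A-/G+ replicate 3 was the lowest of all 6 arrays. The second probe read 8.51, 8.07 and 8.24 against 7.50, 7.70 and 7.24. Here all A+/G+ arrays were higher, by 0.79 (standard error 0.174), and the probe missed the limit (adjusted p = 0.0597, limma). The third read 7.37, 7.23 and 7.49 against 7.90, 7.75 and 6.62, with a difference of -0.06 whose interval ran from -1.02 to 0.90 (adjusted p = 0.939, limma). On that probe the lowest and both of the highest arrays were A-/G+.

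The ratio of a pair of Slc1a2 probes on the same array shows whether they changed unequally, after quantile normalization. The log2 ratio of the first to the second probe was 1.82 to 2.04 on the A+/G+ arrays and 2.25 to 2.75 on the A-/G+ arrays, a change of -0.53 with no overlap. The ratio of the second to the third probe was 0.75 to 1.14 against -0.40 to 0.61, a change of 0.85, also with no overlap. Both reached the smallest exact permutation p that 3 arrays against 3 can give, 0.1 (two-sided). The ratio of the first to the third probe overlapped between the fractions, with a change of 0.32 (exact permutation p = 0.2). The second probe, which lies between the others on the plus strand, was thus higher in A+/G+ relative to both of them.

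Slc1a1, which encodes EAAC1, a transporter found mainly on neurons, was measured by 10 spots per array, of which 7 to 10 were kept, at chr19:28988332-28988391. Its mean read 7.34, 7.15 and 7.24 in A+/G+ and 6.55, 6.98 and 7.52 in A-/G+. The A-/G+ arrays lay on both sides of the A+/G+ arrays, with replicate 1 the lowest and replicate 3 the highest of all 6. The SD between spots of 1 array was 0.0617 to 0.171. The difference was 0.23 with an interval from -0.45 to 0.90 (adjusted p = 0.627, limma), and it was -0.007 without A-/G+ replicate 1.

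Slc1a6 had the largest difference among the 8 genes. It read 10.65, 9.90 and 10.50 in A+/G+ and 8.61, 8.19 and 8.40 in A-/G+. All A+/G+ arrays were higher, with replicate 2 the lowest of them. The difference was 1.95 (standard error 0.238, adjusted p = 0.0154, limma), with an interval from 1.34 to 2.56 and medians 4.29-fold apart. Without A+/G+ replicate 1 the difference was 1.80 (adjusted p = 0.0571, limma) and the medians were 3.48-fold apart, and without A+/G+ replicate 3 they were 1.87 (adjusted p = 0.0749) and 3.66-fold, so that neither limit was met in these cases. Of 17 alternatives it passed the test in 14.

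Slc1a4 encodes ASCT1, which exchanges alanine, serine and cysteine and does not carry glutamate although it belongs to the same family. At chr11:20202615-20202674 it read 10.25, 10.33 and 10.52 in A+/G+ and 10.23, 10.44 and 9.52 in A-/G+. The fractions overlapped, with A-/G+ replicate 2 inside the range of A+/G+, replicate 1 just under it and replicate 3 lower than the rest. The difference of 0.30 had an interval from -0.38 to 0.99 (adjusted p = 0.555, limma).

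Among the genes of the glutamine cycle, Glul encodes glutamine synthetase, which makes glutamine in astrocytes. It read 11.60, 11.50 and 11.68 in A+/G+ and 12.09, 11.80 and 11.93 in A-/G+ at chr1:155756765-155756824. Every A-/G+ array was higher, by a small margin. The difference of -0.35 (standard error 0.101) had an interval from -0.61 to -0.09 and missed the limit (adjusted p = 0.114, limma) here and in all 17 alternatives, with adjusted p-values from 0.0552 to 0.317.

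Slc38a3 encodes SNAT3, also called SN1, a carrier of astrocytes through which glutamine leaves the cell. It read 11.70, 11.80 and 11.87 in A+/G+ and 10.14, 9.91 and 10.20 in A-/G+. The arrays of each fraction lay close together and far from those of the other. The difference was 1.71 (standard error 0.101, adjusted p = 0.0039, limma), with an interval from 1.45 to 1.97. Its medians were 3.16-fold apart, short of the 4-fold limit. It passed the test with any 1 array left out, at adjusted p-values of 0.00657 to 0.0276.

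Glud1 converts glutamate to alpha-ketoglutarate in mitochondria. Its first probe read 13.97, 13.87 and 14.08 in A+/G+ and 12.83, 13.05 and 12.48 in A-/G+. Its second probe read 13.64, 13.48 and 13.65 against 12.44, 12.79 and 12.27. Neither overlapped, and on both probes A-/G+ replicate 2 was the highest and replicate 3 the lowest of its fraction. The differences were 1.18 (standard error 0.165, adjusted p = 0.0206, limma) and 1.09 (adjusted p = 0.0212), and the medians 2.21-fold and 2.30-fold apart. The ratio between the probes overlapped between the fractions, with a change of 0.10. Leaving out any A+/G+ array raised the adjusted p of the first probe to 0.0827, 0.0797 and 0.092 for replicates 1, 2 and 3, and leaving out A-/G+ replicate 1 raised it to 0.0547. It also missed the limit under the 75th percentile shift (adjusted p = 0.0501), under that shift over probes above background (0.0581) and by the methods' t-test (0.0517), and passed in 9 of 17 alternatives.

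**Figure D2:**
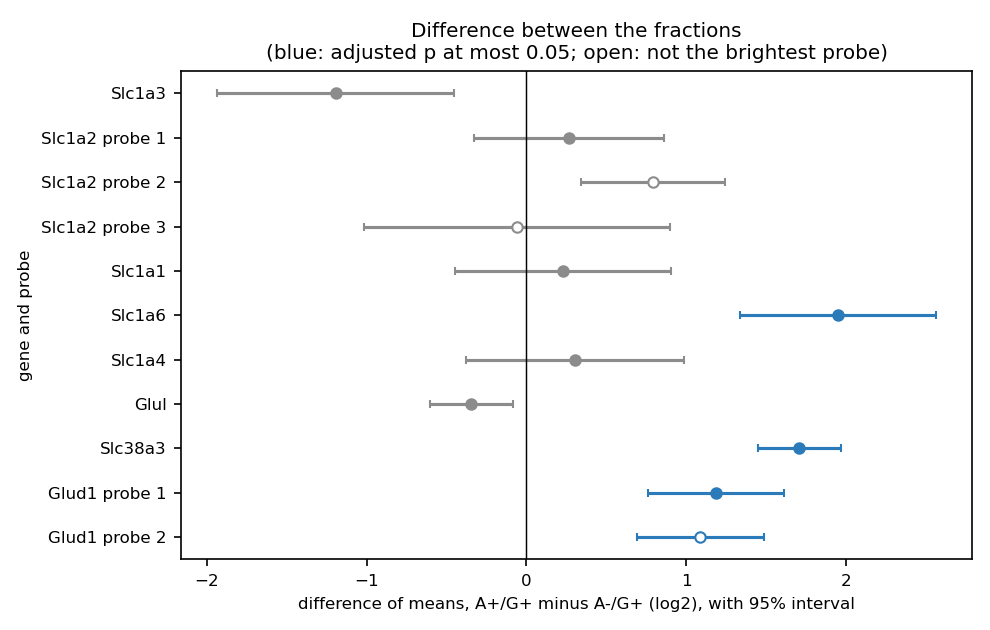
Difference of the means, A+/G+ minus A-/G+, in log2 units for each of the 11 probes, with its 95% interval from limma. Blue marks an adjusted p of at most 0.05, and open circles mark probes that are not the brightest of their gene; the differences ran from -1.19 for Slc1a3 to 1.95 for Slc1a6.

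In the order of the differences, Slc1a6 at 1.95 was followed by Slc38a3 at 1.71, Glud1 at 1.18, Slc1a4 at 0.30, Slc1a2 at 0.26 and Slc1a1 at 0.23, with Glul at -0.35 and Slc1a3 at -1.19. The 95% intervals of all neighbours in this order overlapped, and differences between genes were not tested on this scale.

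A ratio within an array does not move when the whole array is shifted by 1 value, but quantile normalization is not such a shift. The log2 ratio of each of the other 7 genes to Slc1a3 was higher on every A+/G+ array than on every A-/G+ array. Slc1a3 itself did not overlap between the fractions and is a term of all 7 ratios, so they are not separate results. A gene with little change of its own tends to give the same outcome, and the share of all symbols that do so is not given here. The smallest change was that of Glul, 0.85 (standard error 0.318), the gene that moved the same way as Slc1a3. The changes were 1.42 for Slc1a1, 1.46 for Slc1a2 and 1.50 for Slc1a4. They reached 2.38 for Glud1, 2.90 for Slc38a3 and 3.14 for Slc1a6. With the 75th percentile shift in place of quantile normalization, the changes of Glul and Slc1a1 were 1.09 and 1.67. Each gave an exact permutation p of 0.1 (two-sided), the smallest possible, and 0.1 after adjustment over the 7 genes. A ratio that changes shows unequal change of its terms and not which of them changed.

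The spread of these ratios differed between genes. The ratio of Slc1a4 to Slc1a3 was -3.02, -2.98 and -3.09 in A+/G+ and -4.61, -4.48 and -4.48 in A-/G+, with SDs of 0.0604 and 0.0762, although Slc1a4 alone had an SD of 0.483 over the A-/G+ arrays and Slc1a3 one of 0.514. Slc1a4, Slc1a3 and the first Slc1a2 probe were all lowest on A-/G+ replicate 3 within that fraction. The ratio of Slc1a2 had SDs of 0.224 and 0.130. The ratio of Slc1a1 varied most in A-/G+, with an SD of 0.968, and came to -6.47 on replicate 3, next to the lowest A+/G+ value of -6.38.

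**Figure D3:**
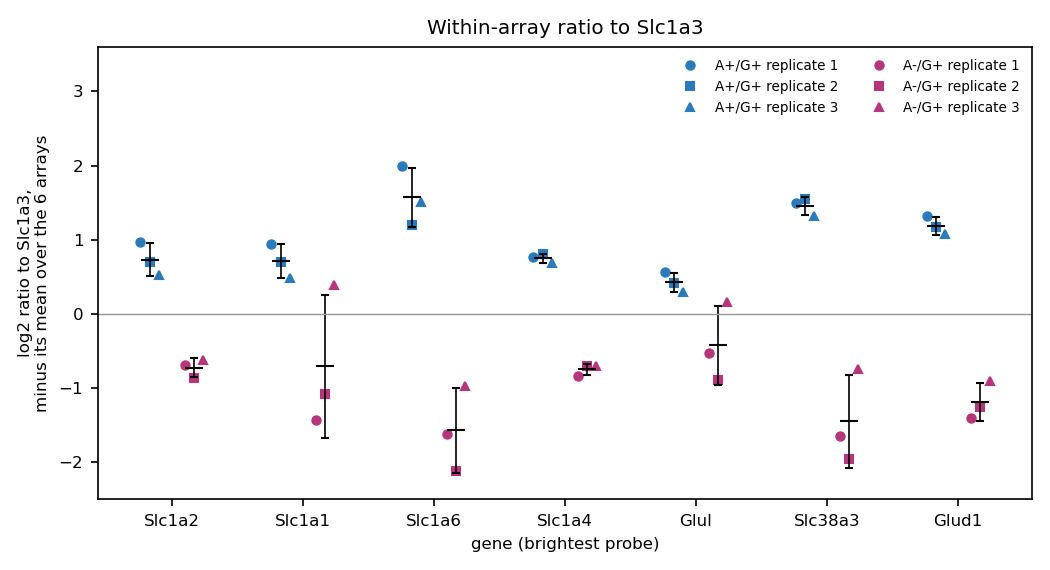
Log2 ratio of each gene to Slc1a3 on the same array, minus that ratio's mean over the 6 arrays. Points are arrays (blue A+/G+, magenta A-/G+; shapes mark replicates) and bars the mean and SD of 3 arrays; every A+/G+ point lies above every A-/G+ point of its gene, closely for Slc1a1 and Glul and with little scatter for Slc1a4.

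Beyond these genes, 36 others that transport, make or use glutamate and glutamine, or bind the transporters, were read from a list. The test was passed by 5 genes with the higher signal in A+/G+ and by 3 with the higher signal in A-/G+, and missed by 28, beside the 7.48% and 5.12% of all symbols. The median difference was 0.25. The counts depended on single arrays, and the share of all symbols passing without an array is not given here. Those higher in A+/G+ numbered 3 without A+/G+ replicate 1, 1 without A+/G+ replicate 2 or 3, and 9 without A-/G+ replicate 3, and those higher in A-/G+ numbered 1, 0 and 1 without A+/G+ replicates 1, 2 and 3.

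Both genes of the list that also met the 4-fold limit carry glutamate and were higher in A+/G+, where 2.62% of all symbols met both limits. Slc7a11, the light chain of the exchanger that releases glutamate for cystine, read 8.75, 8.67 and 8.52 in A+/G+ and 5.63, 6.03 and 4.41 in A-/G+, where 2 of 3 arrays measured it above background. Its difference was 3.29 (adjusted p = 0.0194, limma), larger than that of any of the 8 genes. Slc17a8, the vesicular transporter VGLUT3, read 5.41, 5.11 and 5.60 against 3.02, 2.55 and 2.83. No A-/G+ array measured it well above background, and against the floor of those arrays A+/G+ was at least 1.42-fold higher (adjusted p = 0.00532, limma). The fall from 2 genes past both limits to 1 occurred without any one of the A+/G+ arrays, and without A-/G+ replicate 3 the count was 5.

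Among the mitochondrial carriers, Slc25a18, a glutamate carrier, went with Glud1 in direction, with a difference of 1.50 (adjusted p = 0.0121, limma), while Slc25a13, an exchanger of aspartate for glutamate, was lower in A+/G+ at -0.57 (adjusted p = 0.0234). Bcat1, a transaminase that makes glutamate from branched-chain amino acids, was higher in A-/G+ (difference -1.01, adjusted p = 0.0113), as was Pcx, pyruvate carboxylase, an enzyme that supplies carbon for new glutamate (-0.76, adjusted p = 0.0488). Partners of the transporters showed small differences. Arl6ip5, which binds the Slc1a1 protein, exceeded its A-/G+ level by 0.53 (adjusted p = 0.0118) and Slc9a3r1, which binds the Slc1a3 protein, by 0.44 (adjusted p = 0.0416). Neither glutaminase passed the test, nor did any of the 4 other glutamine transporters. Of the 36, 3 were not well above background on any array, the family member Slc1a7, the vesicular Slc17a7 and the mitochondrial Slc25a22.

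**Figure D4:**
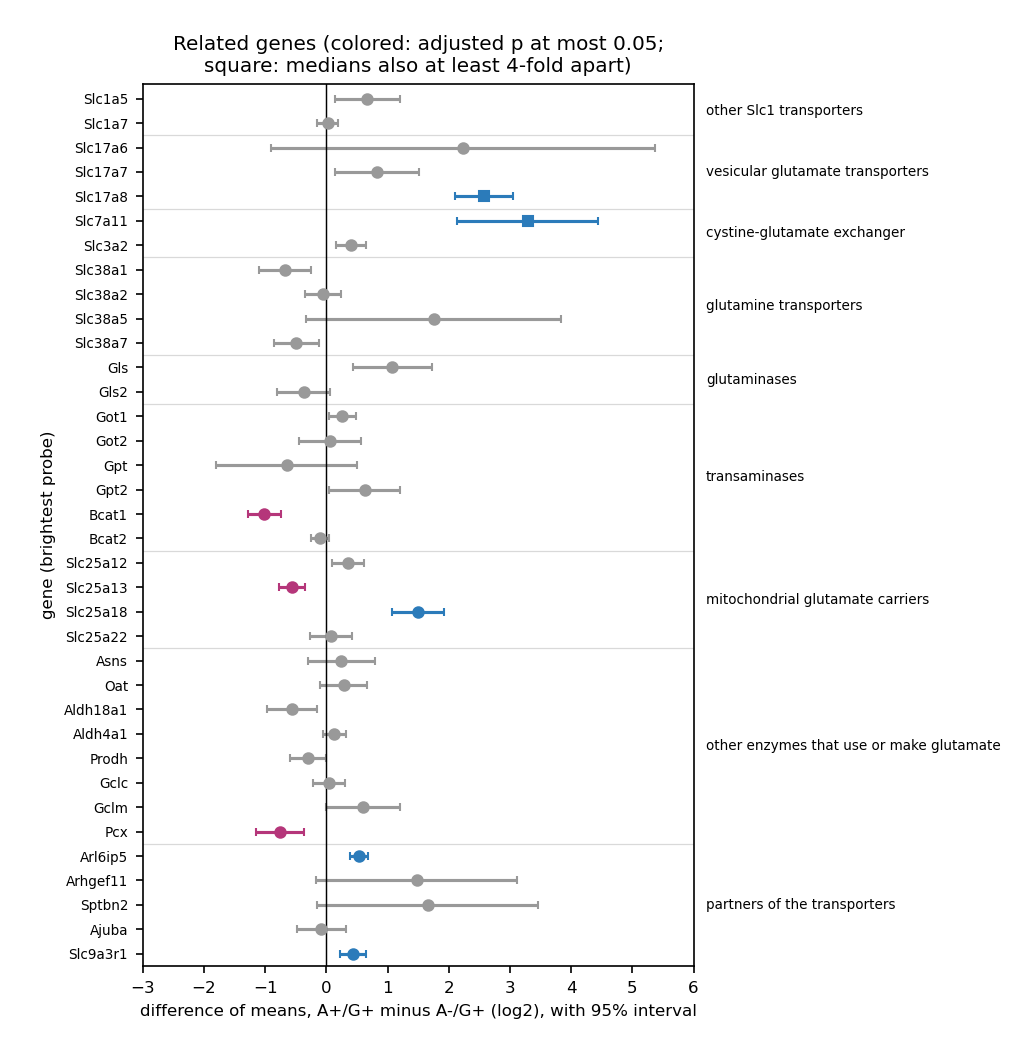
Difference of the means, A+/G+ minus A-/G+, in log2 units with its 95% interval for 36 related genes, grouped by role. Color marks an adjusted p of at most 0.05 (blue higher in A+/G+, magenta higher in A-/G+) and squares mark medians at least 4-fold apart as well, which were Slc17a8 and Slc7a11.

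Genes that mark other cells of the cerebellum moved with the fractions too. The counts of passing markers stand beside 7.48% of all symbols that passed as higher in A+/G+ and 5.12% as higher in A-/G+. Each of the 8 astrocyte markers exceeded background on each array, as did 6 of 8 granule neuron and 6 of 8 oligodendrocyte lineage markers. Of the astrocyte markers 4 were higher in A+/G+ and 1 was lower, with overlapping summed linear signals of 138000 to 148000 and 113000 to 177000. Atp1b2, which encodes the ACSA-2 antigen, read 12.97, 12.70 and 12.81 in A+/G+ against 10.86, 10.82 and 10.31, and all 6 Bergmann glia markers were higher in A-/G+, with sums of 2950 to 3640 against 14600 to 22600, the direction of Slc1a3. Of the oligodendrocyte lineage list 3 of 8 were higher in A+/G+ and 1 was lower, with sums of 15000 to 18300 against 3000 to 6550, and of the motile cilia list 7 of 8 were higher in A+/G+, with sums of 4930 to 7990 against 635 to 1330. Of the granule neuron markers 2 of 8, Pax6 and Zic2, were higher in A-/G+ and none passed the other way, although 5 had the higher mean in A+/G+ and the median difference was 0.32, with overlapping sums of 2860 to 3940 and 3760 to 6820. GABAergic interneuron progenitor markers were higher in A-/G+ in 3 of 6, with sums of 1710 to 1920 against 4250 to 5180. The study named Mybpc1, Npy, Gria1, Gdf10 and Wif1 of the Bergmann glia list as A-/G+ genes from these same arrays. Ptf1a and Kirrel2 of the interneuron list were named likewise, so the direction of these genes here is no separate support. None of 8 microglia markers passed, at sums of 1210 to 2160 and 1560 to 3840, nor did any of 4 red blood cell markers, at 8800 to 16100 and 2540 to 7790. At an unadjusted p under 0.05 in limma, 1 and 3 of them had the higher mean in A+/G+. The microglia marker among these, Ptprc, was well above background on no array. The share of all symbols at that unadjusted limit is not given here. The part of these cells in the differences of Slc1a3, Slc38a3 and Glud1 was not tested.

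For Slc1a6 the list of interest is that of Purkinje cells, which carry its protein. Of 11 Purkinje cell markers, 6 passed as higher in A+/G+ and none as lower, beside 7.48% and 5.12% of all symbols. Their summed linear signal was 5900 to 14800 on the A+/G+ arrays and 1980 to 2480 on the A-/G+ arrays. Pcp2 read 11.52, 9.85 and 10.48 against 5.76, 5.80 and 5.34, a difference of 4.98. Within A+/G+, replicate 1 was the highest and replicate 2 the lowest for Pcp2, for the sum of the list and for Slc1a6. Pcp4, Calb1, Car8, Itpr1 and Skor2 had this order too. Foxp2, Lhx1, Lhx5 and Rora did not, and were lowest on replicate 3 of A+/G+, nor did Ppp1r17. On no A-/G+ array did Calb1, Car8, Foxp2 or Skor2 stand well above background, and Ppp1r17 did so on none of the 6. Pcp4, Itpr1, Lhx1, Lhx5 and Rora did so on all 3 A-/G+ arrays, as did Slc1a6, and Pcp2 on 2. The part of Purkinje cell RNA in the difference of Slc1a6 was not tested.

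The endothelial list was among those that set A-/G+ replicate 3 apart from the other arrays of its fraction, as did the summed signals of the oligodendrocyte lineage list (3000, 3060 and 6550 on replicates 1, 2 and 3), the granule neuron list (4220, 3760 and 6820) and the red blood cell list (3940, 2540 and 7790). The endothelial summed linear signal was 8150 there and 1620 and 1860 on replicates 1 and 2, compared with 7790 to 11700 in A+/G+. Of its 8 markers 1 passed the test, Cdh5, as higher in A+/G+, beside 7.48% of all symbols. Slc38a5, a glutamine carrier close to SNAT3 and named here after its values were seen, was also high on that array. It read 11.41, 11.61 and 12.15 in A+/G+ and 8.78, 9.47 and 11.66 in A-/G+ (adjusted p = 0.295, limma), and passed without A-/G+ replicate 3 (difference 2.60, adjusted p = 0.0209). Slc38a3 was at 10.20 on that array, and without the array its difference was 1.76 (adjusted p = 0.00657).

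**Figure D5:**
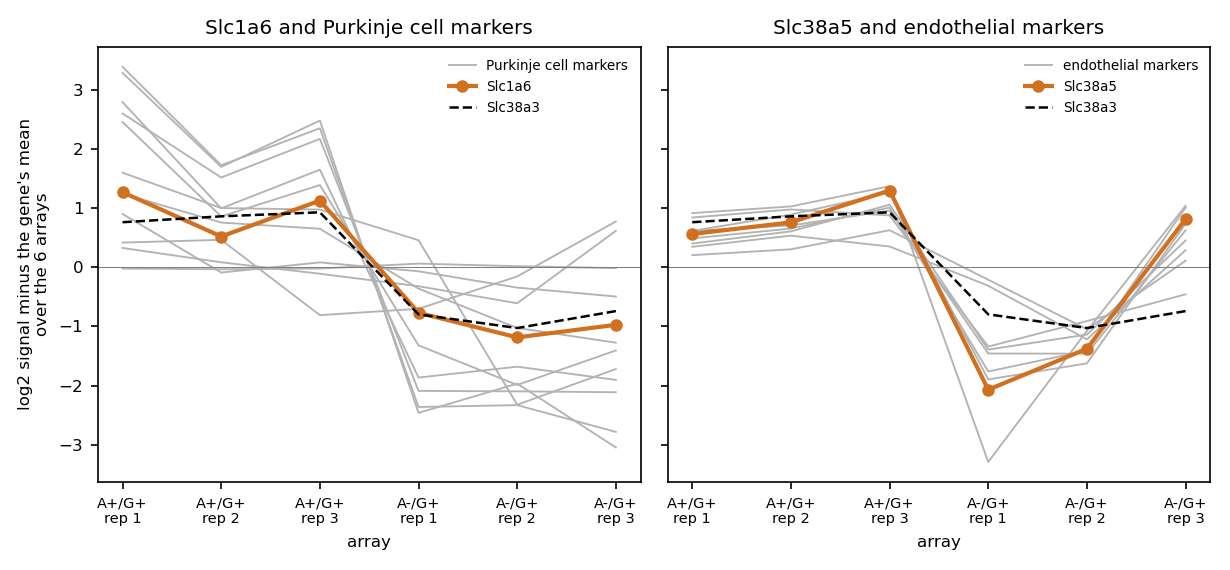
Log2 signal on each array minus the gene's mean over the 6 arrays, for Slc1a6 with 11 Purkinje cell markers (left) and Slc38a5 with 8 endothelial markers (right). Grey lines are single markers and the dashed line is Slc38a3; Slc1a6 and most Purkinje cell markers are highest on A+/G+ replicate 1, and Slc38a5 rises with the endothelial markers on A-/G+ replicate 3 while Slc38a3 stays low.

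Likeness to a profile was measured as the root mean square distance between centred log2 profiles over the 6 arrays, among 11332 genes well above background on all 6 arrays. Closest to Slc1a3 were Insig1, a regulator of sterol synthesis (distance 0.0985, Pearson's r 0.990), Klf3, a transcription factor (0.0996, 0.992), and Vwa5b1 (0.103, 0.991), all of them with the lower A-/G+ replicate 3. Closest to Slc1a6 were Gatm, an enzyme of creatine synthesis (0.192, 0.983), Slc7a10, an amino acid transporter (0.194, 0.981), and the protocadherin Pcdhac2 (0.205, 0.979). The Purkinje cell markers Pcp2, Calb1, Car8, Foxp2, Skor2 and Ppp1r17 were not well above background on all 6 arrays and so could not appear here. Pcp4, Itpr1, Lhx1, Lhx5 and Rora of that list could appear and were not among the closest genes. These are descriptions over 6 arrays that share their fraction, slide and brightness, and carry no test.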

How the data were processed

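Single-color Agilent arrays of 6 samples were read. The authors deposited the scanner files, where Agilent Feature Extraction 10.7.3.1 lists a background-corrected intensity per spot, together with their own quantile normalized log2 table, which has 38 empty cells and served as an alternative. From the intensities, log2 values of spots that are neither controls nor marked as outliers (118 to 250 marked per array) were quantile normalized and averaged per probe. All 55681 probes were tested with limma 3.58.1 in R 4.3.3 with Benjamini-Hochberg adjustment and no filter on dim probes, where the study's methods name a t-test. The limits were an adjusted p of 0.05 and, as in those methods, medians 4-fold apart. A gene was read by its probe with the highest mean signal. A probe well above background on no array of a fraction has a bound there, taken per array as its own signal or, where higher, the floor of the probes well above background.

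The RefSeq table of GRCm38.p6, used for names only, held all 8 symbols and 20976 of the 24082. Named are all 8 genes, related genes past the adjusted p limit, marker genes that touch a result and the 3 genes with the profiles closest to Slc1a3 and to the gene with the largest difference. The 8 genes, the 36 related genes and the 10 marker lists were chosen with earlier results of these data known. As alternatives, arrays were shifted to the 75th percentile of all probes or, chosen after seeing the data, of probes above background. The others were normexp (offset 50), the authors' table, a dim-probe filter, limma with array weights, limma with a robust variance trend, the methods' t-test, kept outlier spots, the mean of a gene's probes, a replicate block, and each array left out.

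On simulated data with the spread of this comparison, 200 of 55660 probes were changed. The fit called 18.5% of those changed by 1 on the log2 scale, 47.5% of those changed by 2 and 63.0% of those changed by 3, with 6, 8 and 10 false calls. In the data 2589 probes passed as higher in A+/G+ and 2583 as higher in A-/G+. With so few changed probes the adjustment is stricter in the simulation, so these shares are not the power of the comparison itself. Precision is limited by the number of arrays.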

Additional observations from a re-analysis of the deposited data

How the results depend on the processing

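Directions of all 8 genes held under all 17 alternatives except that of Slc1a1, which was -0.007376 without A-/G+ replicate 1 (range with 1 array left out -0.007376 to 0.4797). The ratios to Slc1a3, which all share that term, did not overlap between the fractions under any of 11 alternatives. A shift to the 75th percentile moved the median difference of all probes from -0.04 to -1.02, and that of the 17955 probes well above background on all arrays from -0.12 to -0.16. Under that shift, relative to the latter probes, Slc1a3 was at -1.31 and Glul at -0.22. Relative to all probes, most of which were not well above background on all arrays, Slc1a3 was at -0.46 and Glul at 0.63. After quantile normalization Glul was at -0.30 relative to all probes and at -0.23 relative to those above background. Its sign thus turned only under a shift with all probes as the reference.

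The count of the 8 genes higher in A-/G+ was 1, Slc1a3, in place of 0 (by probe likewise 1) under the 75th percentile shift, normexp, the filter on dim probes, limma with trend and robust variance, and array weights. The count past both limits was 0 under normexp, where Slc1a6 fell short of 4-fold. Under both percentile shifts and the methods' t-test, the genes higher in A+/G+ numbered 2 in place of 3, without Glud1, and the probes 2 in place of 4. Of the 36 related genes, those higher in A+/G+ numbered 2 under both shifts, 8 under normexp and 3 by the t-test, in place of 5. Those higher in A-/G+ numbered 1 under the shift, 0 under the shift over probes above background, 6 under normexp and 1 with the mean of probes, in place of 3. Those past both limits numbered 1 under both shifts, the t-test and the mean of probes and 0 under normexp, in place of 2. The cause was not tested. The share of all symbols passing is given for the main setting only, so shifts of these counts cannot be set against the call rate of each fit.

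With 1 array left out, the genes numbered 1 to 3 higher in A+/G+, 0 to 1 higher in A-/G+ and 0 to 1 past both limits, and the probes 1 to 4 and 0 to 1. The related genes numbered 1 to 9, 0 to 3 and, past both limits, 1 to 5.

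With the replicate block, all of these counts were 0, and the adjusted p-values from limma were 0.0643 for Slc1a6, 0.0635 for Slc38a3 and 0.115 for Glud1. The deviations of same-numbered arrays from their fraction means correlated at 0.196, 0.113 and -0.114 for replicates 1, 2 and 3, over 17955 probes. Differently numbered arrays were not compared, so these values do not show a shared deviation. The labels do not say that a number marks a shared litter or day, so the arrays share only a number. The slide could not be fitted as a block, since no slide held arrays of both fractions. The A-/G+ arrays were dimmer, which limits what can be said of probes near background there.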
